A study of Drosophila melanogaster with 8 samples.

Results

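The Niemann-Pick family of Drosophila melanogaster consists of 10 genes, Npc1a, Npc1b and Npc2a to Npc2h. Members were the probe sets whose only gene symbol in the platform annotation was one of these names. This gave 9 genes with 1 probe set each, of 11981 genes named in this way on the Affymetrix Drosophila Genome 2.0 array, and Npc1b was not analysed here. RNA was measured on 8 arrays, 2 for each combination of 2 genotypes and 2 organs, all from mated females 4 days old. The organs were the spermathecae, the paired glands that store sperm, and the lower reproductive tract dissected without them. The genotypes were wild type, with no strain named, and Hr39(04443), a mutant of the nuclear receptor gene Hr39. The labels do not say which part of the gene the mutation alters or how many animals were pooled. The second array of each group is labelled a duplicate, with no word on separate animals. The p-values therefore cover the spread between arrays, and that spread may be technical alone.

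Insects cannot make sterols and take them from food. NPC proteins move sterols out of the late endosome and lysosome: an NPC2 protein binds the sterol in the lumen and hands it to the membrane protein NPC1, which carries a sterol-sensing domain. In Drosophila, Npc1a and Npc2a are needed for sterol supply to ecdysteroid synthesis, with overlap between Npc2a and Npc2b. Npc1b is needed for sterol uptake in the midgut. Some NPC2 proteins of the fly, Npc2a and Npc2e among them, also bind bacterial cell wall components. Hr39 is related to mammalian SF-1, a regulator of steroid-producing tissues, and the question of the series is what Hr39 does as the female tract forms and works.

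Values are MAS5 signals on a linear scale. Differences and their standard errors (SE) are on the scale of log2(signal + 4), and folds are taken from it. Of the 9 members 6 passed the filter on low values, namely Npc1a, Npc2a, Npc2b, Npc2f, Npc2g and Npc2h, and all 6 lay above the array median on all 8 arrays. Array medians ran from 17.7 to 22.5. The brightest family value was 2071, well under the lowest array maximum of 10669. The mutated gene itself has 4 probe sets. In spermathecae 3 of them read lower on both mutant arrays than on both wild-type arrays, with 452 to 477 against 725 to 821 on 1630002_s_at, 347 to 382 against 517 to 570 on 1631402_s_at and 12.2 to 14.6 against 21.4 to 24.3 on 1632845_at, while on 1628556_s_at the genotypes overlapped (159 to 211 against 154 to 234). In lower tract the same 3 were again lower in the mutant, with 59.6 to 65.4 against 73.3 to 88.2 on the first and 50.6 to 56.7 against 79.4 to 87.3 on the second. On 1632845_at they read 0.202 to 1.08 against 6.01 to 6.36, all below the array medians, so that difference carries little weight. There 1628556_s_at overlapped (56.1 to 68.6 against 58.8 to 70.4). The marker genes of spermathecal secretory cells summed to between 82028 and 115147 on spermatheca arrays and to between 399 and 6655 on lower tract arrays (9 of 11 names matched). The lower tract sums were 2351 and 399 in wild type and 6655 and 1478 in the mutant, so mutant lower tract replicate 1 was highest. The marker genes of muscle summed to between 5565 and 5986 on spermatheca arrays and to between 55325 and 63605 on lower tract arrays (13 of 18 names). On 2 arrays other signals stood apart: wild-type spermathecae replicate 1 had a 3' to 5' ratio of the Act5C control of 24.9, against 3.56 to 4.80 elsewhere, and wild-type lower tract replicate 1 read 547 for the germline gene osk, against 0.525 to 18.1 elsewhere.

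**Figure D1:**
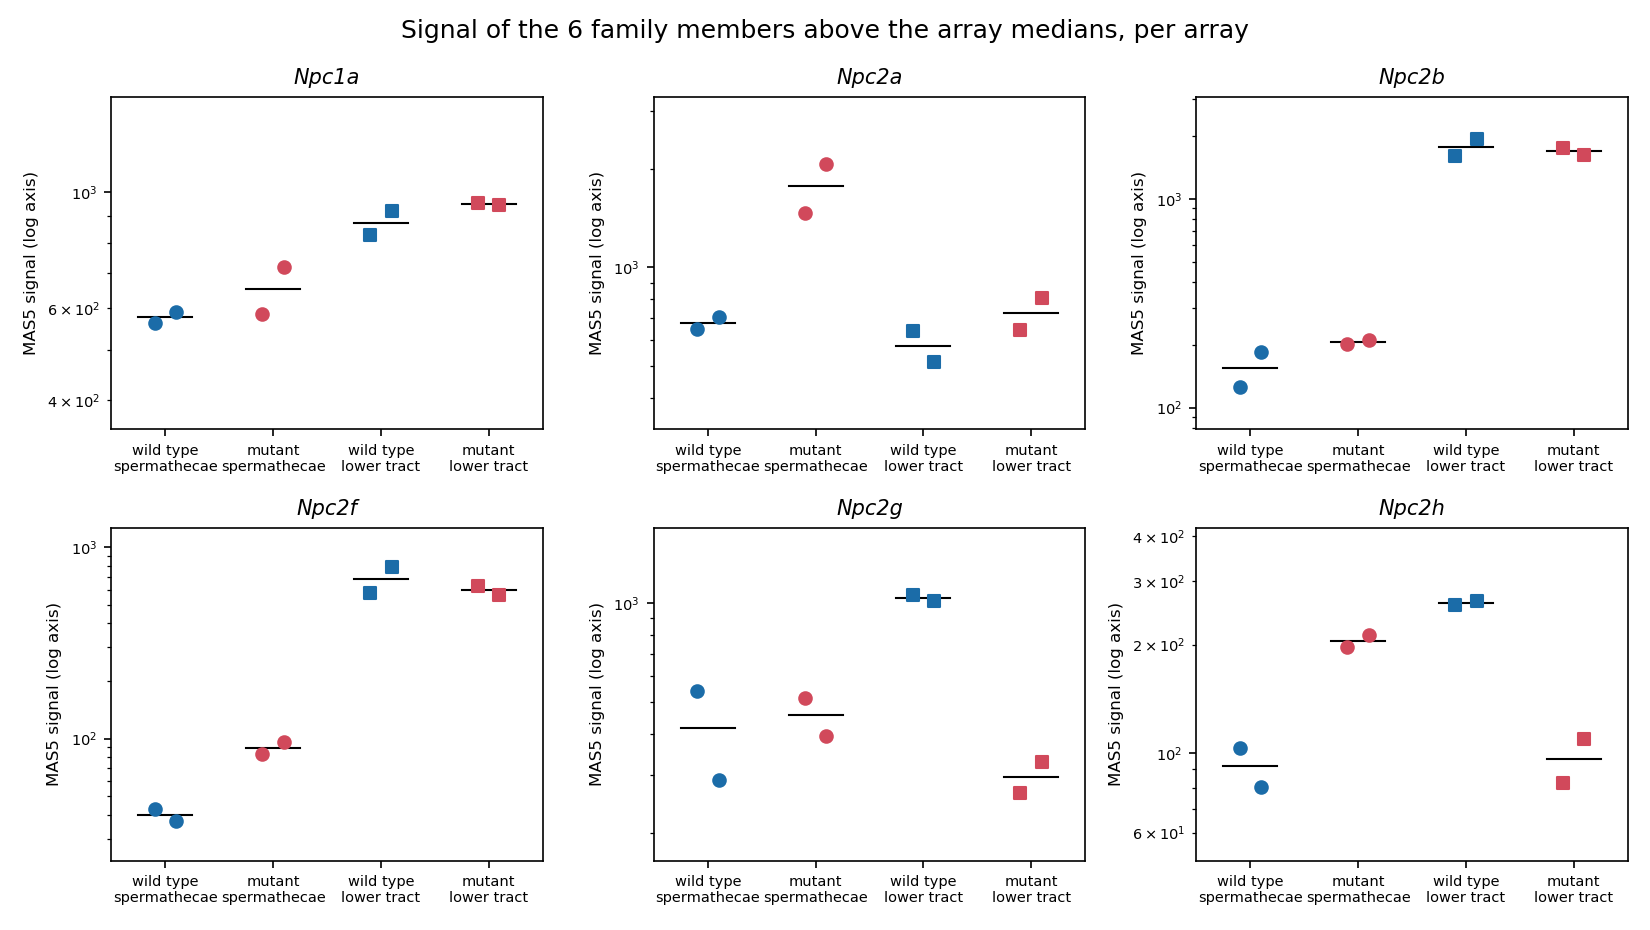
MAS5 signal (log axis) of the 6 members above the array medians, with 1 point per array, circles for spermathecae, squares for lower tract, blue for wild type, red for mutant and a line at the group mean. Npc2b and Npc2f are low in both spermatheca groups, Npc2a is high in mutant spermathecae, and Npc2h is high in wild-type lower tract and mutant spermathecae.

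Npc1a, the membrane transporter of the pair, was lower in spermathecae than in lower tract in both genotypes and did not pass the test between genotypes. Its signals were 563 and 589 in wild-type spermathecae, 586 and 718 in mutant spermathecae, 829 and 922 in wild-type lower tract and 954 and 944 in mutant lower tract. The organs did not overlap, while the genotypes overlapped in the spermathecae. Lower tract exceeded spermathecae 1.51-fold in wild type (log2 difference of spermathecae minus lower tract -0.60, SE 0.151, limma adjusted p = 0.00973) and 1.46-fold in the mutant (-0.55, SE 0.151, limma adjusted p = 0.0142). Both calls depend on the scaling of the arrays, with adjusted p of 0.0534 and 0.0744 after centring each array on its median. The wild-type call was also lost without wild-type lower tract replicate 2 (limma adjusted p = 0.0557). Leaving out mutant lower tract replicate 1 (0.0789) or 2 (0.0681), or mutant spermathecae replicate 1 (0.124), ended the mutant call. Mutant minus wild type was 0.17 in spermathecae (95% interval -0.17 to 0.51) and 0.12 in lower tract (-0.22 to 0.46).

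Npc2a, the lumenal sterol carrier with the best documented role in steroid supply, rose in mutant spermathecae. It read 649.5 and 709 in wild-type spermathecae and 1467 and 2071 in mutant spermathecae. In lower tract it read 639 and 515 in wild type and 646 and 809 in the mutant. Mutant spermathecae stood above all 6 other arrays, which lay between 515 and 809. The rise was 2.56-fold in spermathecae (log2 1.36, SE 0.201, limma adjusted p = 0.00279). In lower tract the difference was 0.33 (95% interval -0.12 to 0.78, limma adjusted p = 0.471), although all mutant arrays read above the wild-type ones. The difference between these effects was 1.02 (SE 0.284) and did not pass (limma adjusted p = 0.108), so an effect limited to one organ is not shown. In wild type the organs did not pass the test (0.24, limma adjusted p = 0.362), and in the mutant the spermathecae were 2.40-fold higher (1.27, SE 0.201, limma adjusted p = 0.00062).

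Npc2b, which overlaps with Npc2a in sterol supply, differed between organs and not detectably between genotypes. It read 126 and 185 in wild-type spermathecae, 202 and 211 in mutant spermathecae, 1598 and 1936 in wild-type lower tract and 1753 and 1625 in mutant lower tract. Every lower tract array read above every spermatheca array. Lower tract was 11.2-fold higher in wild type (log2 difference of spermathecae minus lower tract -3.49, SE 0.194, limma adjusted p = 4.59e-07) and 8.04-fold higher in the mutant (-3.01, SE 0.194, limma adjusted p = 1.24e-06). In the spermathecae mutant minus wild type was 0.43 (95% interval -0.01 to 0.86, limma adjusted p = 0.241). Without wild-type spermathecae replicate 2 it was 0.70 and passed (limma adjusted p = 0.0364). The suffix of its probe set, 1641065_s_at, marks probes that can match transcripts of more than 1 gene.

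Npc2f, a less studied NPC2 gene, had the widest organ difference of the 6 members tested in wild type, was second to Npc2b in the mutant, and rose in mutant spermathecae. It read 43.2 and 37.0 in wild-type spermathecae, 83.0 and 96.0 in mutant spermathecae, 577 and 788 in wild-type lower tract and 625 and 561 in mutant lower tract. The spermatheca groups did not overlap with each other or with the lower tract, where the genotypes overlapped. Lower tract was 15.4-fold higher in wild type (-3.95, SE 0.204, limma adjusted p = 2.86e-07) and 6.39-fold higher in the mutant (-2.68, SE 0.204, limma adjusted p = 3.91e-06). In spermathecae the mutant was 2.12-fold higher (log2 1.09, SE 0.204, limma adjusted p = 0.0101). In lower tract the difference was -0.19 (95% interval -0.64 to 0.27). The difference between these effects was 1.27 (SE 0.288, limma adjusted p = 0.0474), a call lost in 12 of 18 alternatives (0.0615 to 0.218). The rise in spermathecae did not pass without mutant spermathecae replicate 2 (limma adjusted p = 0.0937) or in a fit of the 4 spermatheca arrays alone (0.0604).

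The organ differences of Npc2b and Npc2f lay beside those of whole tissues in the dissection. In wild type all 13 muscle markers were lower in the spermathecae, and so were 8 of 12 hemocyte markers, with 1 higher. Of all probe sets 21.5% were lower there and 22.2% higher. Hemocyte markers summed to between 8608 and 10901 in wild-type spermathecae and to between 11078 and 11696 in wild-type lower tract. Fer2LCH gave the largest part, with 7564 and 5565 in wild-type spermathecae and 4785 and 4992 in wild-type lower tract. The median difference of the 12 hemocyte markers between these groups was -1.89. No marker of the muscle or hemocyte list was at 0. The part of these cell types in the result was not tested. In such dissected organs fewer cells of a type and less RNA per cell cannot be told apart.

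**Figure D2:**
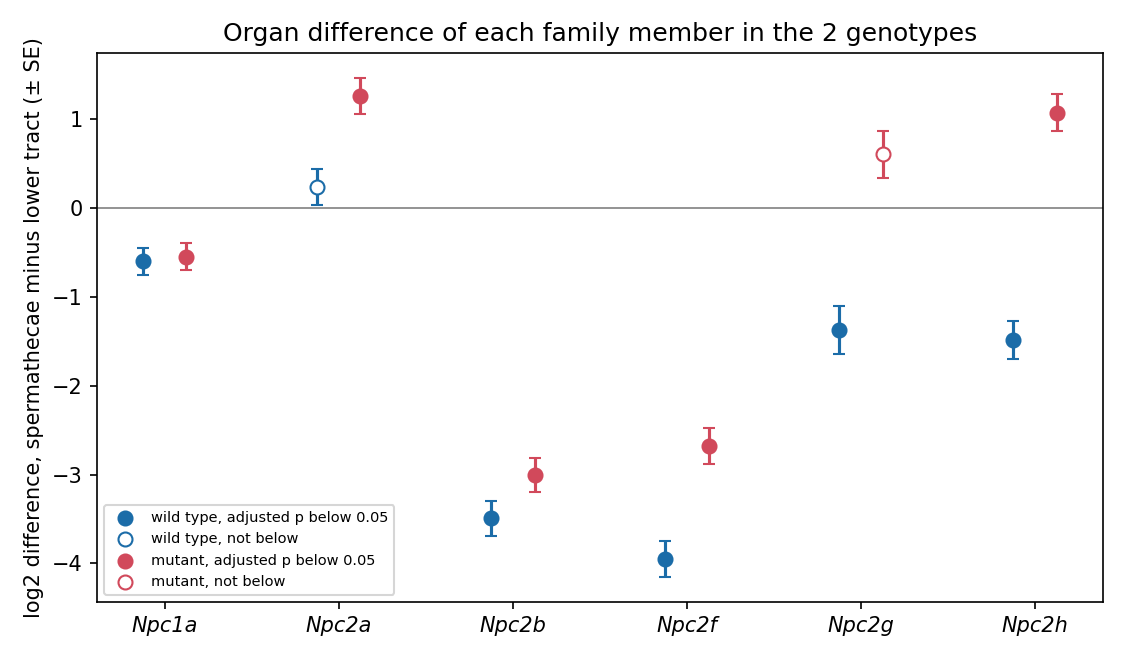
Log2 difference of spermathecae minus lower tract (± SE) for the 6 members, blue for wild type and red for the mutant, filled where the limma adjusted p was below 0.05. Npc2b and Npc2f lie far below 0 in both genotypes, Npc2g and Npc2h lie below 0 in wild type and above it in the mutant, and Npc2a is above 0 and called in the mutant.

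Npc2g and Npc2h, a pair of NPC2 genes next to each other on chromosome 3R with 0 protein-coding genes between them, both fell in mutant lower tract. Npc2g read 1059.8 and 1013 in wild-type lower tract and 265 and 331 in mutant lower tract. Its spermatheca values were 543 and 291 in wild type and 517 and 395 in the mutant. Wild-type lower tract was high, mutant lower tract was low, and the spermatheca groups overlapped. The fall in lower tract was 3.47-fold (log2 -1.79, SE 0.269, limma adjusted p = 0.00377). In spermathecae mutant minus wild type was 0.18 (95% interval -0.42 to 0.79). Npc2g was 2.59-fold lower in spermathecae than in lower tract in wild type (-1.37, SE 0.269, limma adjusted p = 0.00235). In the mutant it was 0.61 higher in spermathecae, which did not pass (limma adjusted p = 0.092) but passed after median centring (0.047), in a fit of the 4 mutant arrays (0.0182) and on leaving out wild-type spermathecae replicate 1 (0.0195) or 2 (0.0191).

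Npc2h changed in opposite directions in the 2 organs. It read 258 and 264 in wild-type lower tract and 82.3 and 109.5 in mutant lower tract. In spermathecae it read 103 and 80.3 in wild type and 197 and 213 in the mutant. The order from high to low was wild-type lower tract, mutant spermathecae, mutant lower tract and wild-type spermathecae, and only the last neighbours overlapped. The fall in mutant lower tract was 2.68-fold (log2 -1.42, SE 0.213, limma adjusted p = 0.00375), and the rise in mutant spermathecae was 2.19-fold (1.13, SE 0.213, limma adjusted p = 0.0102). The difference between these effects was 2.56 (SE 0.301, limma adjusted p = 0.00189) for Npc2h and 1.98 (SE 0.380, limma adjusted p = 0.0225) for Npc2g. The organ difference of Npc2h thus had opposite signs, -1.48 in wild type (SE 0.213, limma adjusted p = 0.000343) and 1.08 in the mutant (SE 0.213, limma adjusted p = 0.00234).

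The calls of this pair between genotypes rest on few arrays. Without mutant lower tract replicate 1 the falls were -1.64 for Npc2g (limma adjusted p = 0.0604) and -1.23 for Npc2h (0.061). The rise of Npc2h in spermathecae did not pass without mutant spermathecae replicate 1 (limma adjusted p = 0.057) or replicate 2 (0.093). The interaction of Npc2g was lost on leaving out any of 6 single arrays (limma adjusted p from 0.0511 to 0.129), while that of Npc2h held in all 18 alternatives. The suffix of the Npc2h probe set, 1624409_a_at, marks probes shared by alternative transcripts of the same gene. Whether any signal is shared between the neighbours was not tested.

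**Figure D3:**
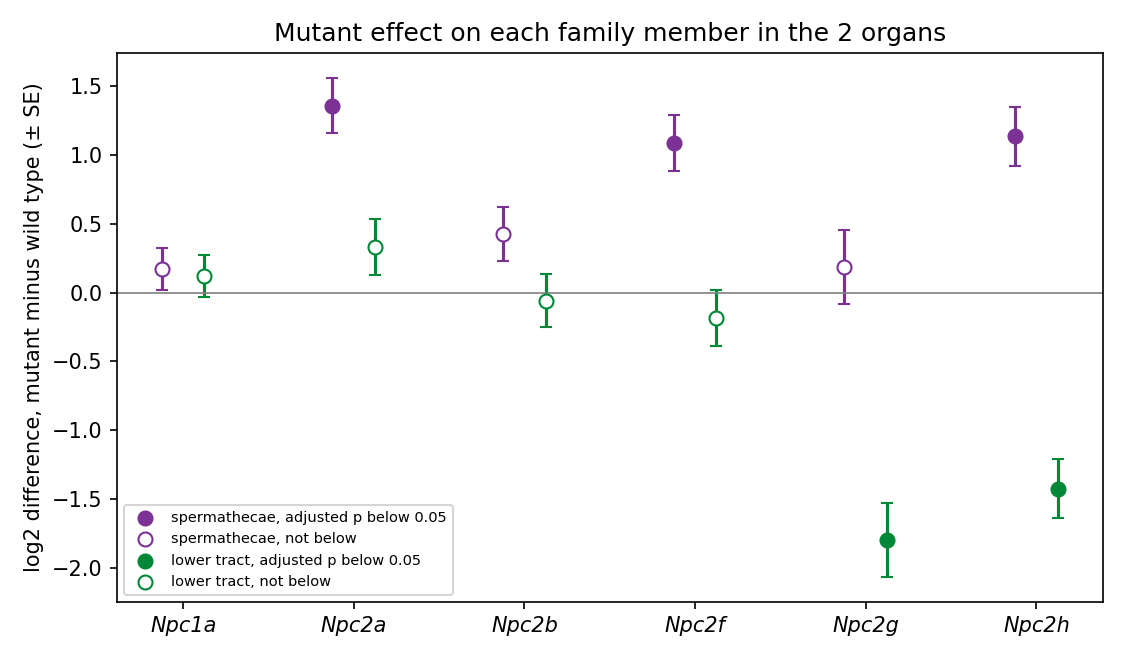
Log2 difference of mutant minus wild type (± SE) for the 6 members, purple for spermathecae and green for lower tract, filled where the limma adjusted p was below 0.05. Npc2a, Npc2f and Npc2h are called above 0 in spermathecae and Npc2g and Npc2h below 0 in lower tract.

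Some markers of the fat body, the fly tissue that makes lipoproteins and yolk proteins, fell with this pair in the lower tract. Over the 11 of 12 marker names matched, the summed signal was 44349 and 45123 in wild-type lower tract and 30743 and 30854 in mutant lower tract. In spermathecae it was 55282 and 33343 in wild type and 43975 and 44401 in the mutant. Most of the sum on each array came from the yolk protein genes Yp1, Yp2 and Yp3, none of which was called between genotypes in either organ. No marker was at 0 and 10 of the 11 lay at or above the array median on all 8 arrays. Of the 10 markers tested, 2 fell in mutant lower tract and 0 rose in limma (4 and 0 at an unadjusted p below 0.05), where 3.33% of all probe sets fell. Here and below, shares of all probe sets count calls at an adjusted p below 0.05. They are no measure for the unadjusted counts. For the interaction 3 of the 10 were called, all positive, where 3.05% of all probe sets were called and 1.76% were positive. Those that fell were apolpp, which encodes the main lipoprotein, and Lsd-1, a lipid droplet protein. On the single arrays apolpp read 3557 and 1976 in wild-type spermathecae, 3672 and 2852 in mutant spermathecae, 4620.4 and 4841 in wild-type lower tract and 1666 and 1952 in mutant lower tract. In wild-type spermathecae apolpp and Npc2g both read higher on replicate 1, the array with the Act5C ratio of 24.9. Of the other markers Yp1, Yp2, Yp3, Lsp2, Lsd-1 and FASN1 also read higher on that array. Acsl, Desat1, Cyp4g1 and Fbp1 read higher on replicate 2. For the fall of Npc2g and Npc2h in lower tract the part of fat body RNA was not tested. For the rise of Npc2h in spermathecae, the summed markers of both mutant arrays lay between those of the 2 wild-type arrays. In the same comparison 2 of 10 markers rose, where 4.04% of all probe sets rose. They were Lsd-1 and Cyp4g1, a P450 gene known from oenocytes as well. The same marker values stand beside the rises of Npc2a and Npc2f there.

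Markers of hemocytes and muscle were also called between genotypes. In mutant lower tract 2 of 12 hemocyte markers rose and 0 fell in limma (4 and 2 at an unadjusted p below 0.05), where 2.47% of all probe sets rose. NimC1, a phagocytosis receptor gene, read 35.1 and 51.8 in wild type and 322 and 331 in the mutant, and the prophenoloxidase gene PPO1 read 191 and 202 in wild type and 359 and 379 in the mutant. Both and the matrix gene Ppn were called for the interaction, all 3 negative, where 1.29% of all probe sets were called negative. Hemocyte sums did not separate the genotypes in this organ (wild type 11078 and 11696, mutant 11946 and 10497). Fer2LCH made up the largest part of each sum (wild type 4785 and 4992, mutant 4830 and 4387). Without a call, Hml (564 and 579 against 300 and 355) and PPO2 (419 and 389 against 232 and 249) read higher on both mutant arrays. Col4a1 (907 and 718 against 1169 and 1174) and vkg (563 and 338 against 774 and 650) read lower on both, also uncalled. Among the 13 muscle markers, 0 were called in mutant lower tract in limma (0 at an unadjusted p below 0.05). In mutant spermathecae 3 of 13 muscle markers rose and 0 fell in limma (4 and 1 at an unadjusted p below 0.05), where 4.04% of all probe sets rose. Act87E, a muscle actin gene, read 61.9 and 81.9 in wild type and 167 and 141 in the mutant, Strn-Mlck 250.0 and 219 against 689 and 602, and TpnC73F 163 and 226 against 344 and 304. The summed muscle markers were 5565 and 5790 in wild type and 5986 and 5898 in the mutant. The median difference of the 13 muscle markers in mutant spermathecae was -0.05. Npc2f and Npc2b, like these markers, were higher in lower tract than in spermathecae. In spermathecae the mutant minus wild type difference of Npc2b was 0.43, with no overlap of the arrays, and was not called (limma adjusted p = 0.241). Of the hemocyte markers 2 of 12 fell and 0 rose in mutant spermathecae in limma, where 3.89% of all probe sets fell. These were the collagen gene Col4a1 and Ppn. The hemocyte sums there were 10901 and 8608 in wild type and 7955 and 8184 in the mutant. The part of either cell type in the changes of Npc2a, Npc2f, Npc2g and Npc2h was not tested.

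**Figure D4:**
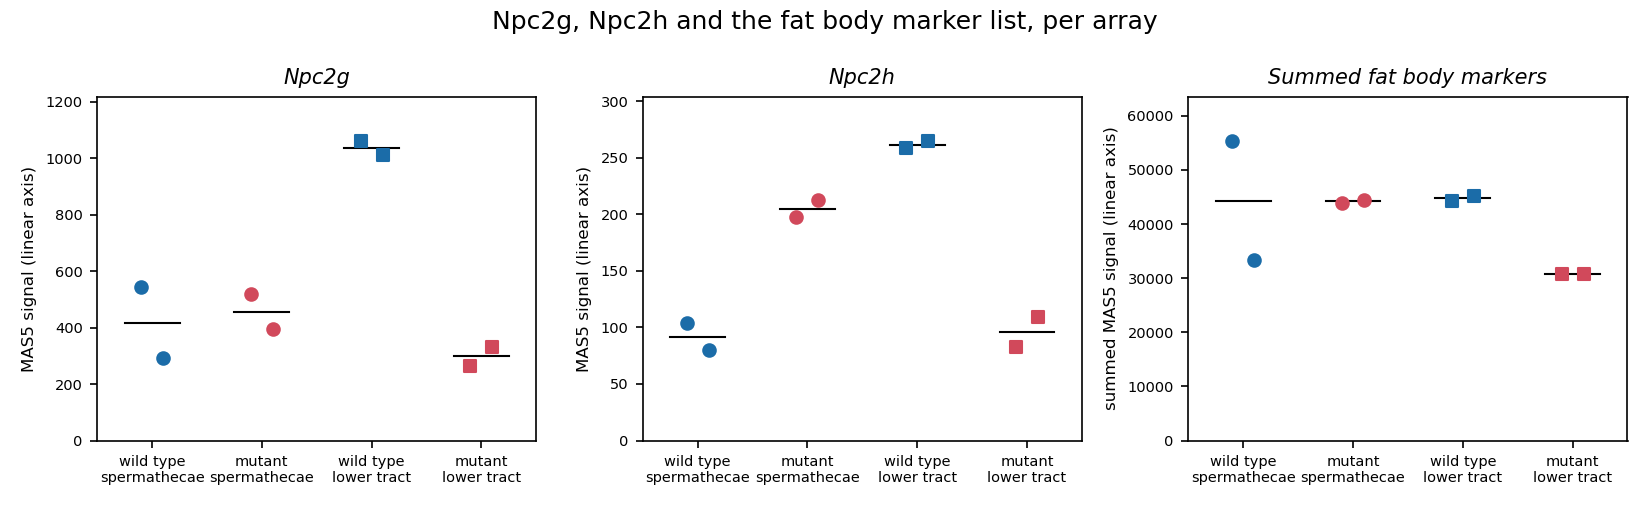
MAS5 signal (linear axes from 0) of Npc2g, Npc2h and the sum of 11 fat body markers, with 1 point per array and a line at the group mean. Most of the marker sum comes from the yolk protein genes Yp1, Yp2 and Yp3. Npc2g, Npc2h and the marker sum are all lower in mutant than in wild-type lower tract, and Npc2h is higher in mutant than in wild-type spermathecae while the marker sums there overlap.

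The remaining 3 members, Npc2c, Npc2d and Npc2e, lie side by side on chromosome 3R with 0 protein-coding genes between neighbours, and none passed the filter. Npc2c read 2.79 to 11.8 over the 8 arrays and stayed below the array median on all of them. Npc2d read 1.99 to 22.2, and its highest and lowest values were the 2 arrays of wild-type spermathecae. Npc2e read 6.03 to 22.9 and reached the array median on 2 arrays, wild-type spermathecae replicate 2 and mutant spermathecae replicate 2. With no filter, none of the 15 tests of these genes passed in limma (smallest adjusted p = 0.419, smallest unadjusted p = 0.18). At these signals, near or below the array median, differences were not detectable.

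Counted over the 6 members tested, 3 rose and 0 fell in mutant spermathecae, where 4.04% of all probe sets tested rose and 3.89% fell. Their median difference was 0.76, against 0.02 over all 10113 probe sets. In mutant lower tract 0 rose and 2 fell, against 2.47% and 3.33% of all probe sets, with a median of -0.12 against -0.00. At an unadjusted limma p below 0.05 these counts were again 3 and 0 in spermathecae and 0 and 2 in lower tract. The shares of all probe sets given here are for adjusted p and are no measure for these unadjusted counts. The interaction of genotype and organ was called for 3 of 6, where 3.05% of all probe sets were called. All 3 were positive, against 1.76% positive and 1.29% negative among all. Between the organs the share of all probe sets called was large, so the family counts say less: in wild type 5 of 6 were lower in spermathecae, where 43.7% of all probe sets were called and 21.5% were lower. In the mutant 3 were lower and 2 higher, where 46.2% of all were called, 21.5% lower and 24.7% higher. Leaving out wild-type spermathecae replicate 1 and wild-type lower tract replicate 1 together also gave 3 and 2 calls between genotypes and 3 for the interaction. The comparisons share arrays, so the counts are not independent of each other. The effects of the mutation are differences between genotypes that may also differ in strain background, which was not tested.

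The position of the members was described with the 2 genes on either side on the chromosome. Outside the family 16 such neighbours were tested, each on its brightest probe set. In limma 1 passed between genotypes in spermathecae and 0 in lower tract (1 and 3 at an unadjusted p below 0.05). Of all probe sets 7.93% and 5.80% were called, so these low counts among 16 do not set the neighbours apart. The 1 that passed was CG9922, near Npc2b, at 0.76 in mutant spermathecae (limma adjusted p = 0.0313). The other 15 had adjusted p from 0.330 to 0.965 in spermathecae, and the lowest in lower tract was 0.171. None of the neighbours tested near Npc2h and Npc2g (zfh1, wts and CG11313), near Npc2f (Tsc1, Sec10, Kal1 and Slimp) or near Npc2a (CG7289 and Got2) passed.

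The genes whose log2 signals followed a member most closely over the 8 arrays were listed for the 4 members called between genotypes. All values rest on the same 4 groups of 2 arrays, so a shared group difference alone gives a high Pearson r. For Npc2g they were CG2233 (r = 0.990), CG12116 (r = 0.985) and the odorant-binding protein gene Obp99c (r = 0.985). Of these, CG12116 read 1349.8 and 1193 in wild-type lower tract and 183 and 178 in the mutant. For Npc2h they were CG1213 (r = 0.988), the cytochrome P450 gene Cyp309a2 (r = 0.969) and Obp18a (r = 0.965). Npc2a was followed by Marc (r = 0.984), CG34279 (r = 0.974) and anchor (r = 0.971), and Npc2f by CG7272 (r = 0.997), the beta-galactosidase gene Gal (r = 0.995) and CG33181 (r = 0.994). The number of other probe sets with r above 0.9 was 988 for Npc2f, 82 for Npc2a, 52 for Npc2g and 18 for Npc2h. Among the members, r was 0.98 for Npc2b with Npc2f, 0.96 for Npc1a with Npc2f, 0.95 for Npc1a with Npc2b and 0.82 for Npc2g with Npc2h, and the other 11 pairs lay between -0.52 and 0.32.

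Other genes of sterol sensing, uptake and storage were read from a list of 36 names, 32 of them matched and 32 probe sets of 30 genes tested. In mutant spermathecae 4 rose and 1 fell, where 7.93% of all probe sets were called in either direction. S1P, the protease that activates the lipid regulator SREBP, read 51.4 and 62.1 in wild type and 163 and 129.99 in the mutant (log2 1.31, SE 0.217, limma adjusted p = 0.00532). The lipid droplet gene Lsd-2 rose by 0.92 (limma adjusted p = 0.0154), the scavenger receptor gene emp by 0.78 (0.0243) and Lsd-1 by 0.75 (0.0407). The gene that fell was Hr96, a nuclear receptor that binds sterols and governs lipid and sterol balance in the fly, with -0.72 (SE 0.176, limma adjusted p = 0.0354). The call of S1P was lost without mutant spermathecae replicate 1 (0.059) and that of Lsd-2 without mutant spermathecae replicate 2 (0.147) or wild-type replicate 2 (0.0504). That of emp was lost without mutant replicate 1 (0.0897), mutant replicate 2 (0.169) or wild-type replicate 1 (0.101) of the spermathecae. Those of Hr96 and Lsd-1 were lost in 10 and 12 of 19 alternatives, with limma adjusted p there of 0.0519 to 0.213 and 0.0504 to 0.249. With no variance trend only S1P of these 5 was called, with limma adjusted p of 0.0655 for Lsd-2 and 0.0847 for emp.

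In mutant lower tract 1 gene of this list rose and 4 fell, where 5.80% of all probe sets were called. Apoltp, the lipid transfer particle that loads lipoprotein with gut lipids, read 547 and 495 in wild type and 103 and 98.5 in the mutant (log2 -2.33, SE 0.225, limma adjusted p = 0.000317). Its partner apolpp fell by 1.39 (limma adjusted p = 0.01), Lsd-1 by 0.96 (0.0163) and the lipase gene bmm by 0.63 (0.0363). The lipase gene Lip4 rose by 1.04 (limma adjusted p = 0.0355). Apoltp, Lsd-1 and apolpp were the 3 called for the interaction of genotype and organ, by 2.12, 1.70 and 1.68 (limma adjusted p = 0.00644, 0.00838 and 0.0353). Both calls of Apoltp held in every alternative, 19 in lower tract and 18 for the interaction. In lower tract, leaving out mutant replicate 1, mutant replicate 2 or wild-type replicate 1 ended the calls of apolpp (0.124, 0.0594 and 0.0551) and Lsd-1 (0.157, 0.104 and 0.0894). With no variance trend 3 of these 5 were called, without bmm and apolpp (0.0505 for apolpp). The calls of Lip4 and bmm were lost in 7 and 10 alternatives (limma adjusted p up to 0.287 and 0.309). The interaction was lost for Lsd-1 without mutant lower tract replicate 1 (0.0623) and for apolpp in 8 alternatives (0.0703 to 0.178). The fat body markers apolpp and Lsd-1 are also in this list.

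Between the wild-type organs 6 probe sets of this list were higher and 16 lower in spermathecae, where 22.2% of all probe sets were higher and 21.5% lower, with a median of -0.70 against 0.07 over all. The lipoprotein receptor gene LpR1 differed by -2.01 (SE 0.213, limma adjusted p = 4.27e-05), Lip4 by -2.58 (2e-05) and Lsd-1 by -2.21 (9.81e-06). In the mutant 7 of 32 were higher and 8 lower, a share near that of all probe sets (46.2% called), among them Start1, a lipid transfer gene of the StAR family, at 1.22 (SE 0.164, limma adjusted p = 0.000209).

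Genes of ecdysteroid synthesis and uptake, the pathway that Npc1a and Npc2a supply, were read next. The 11 probe sets tested covered 8 genes, and the other genes of the 16 matched (18 names) did not pass the filter. Of the 11, 0 rose and 1 fell in mutant spermathecae, and 0 were called in lower tract (limma), where 7.93% and 5.80% of all probe sets were called. At an unadjusted p below 0.05 the counts were 0 and 3 in spermathecae and 1 and 1 in lower tract. The one that fell was mld, a regulator of ecdysone synthesis genes, at -1.04 (SE 0.276, limma adjusted p = 0.0489), a call lost in 15 of 19 alternatives (0.0511 to 0.292). Between the wild-type organs 2 of the 11 were higher and 1 lower in spermathecae, where 43.7% of all probe sets were called, so these calls do not set the list apart. They were usp, the partner of the ecdysone receptor, higher in spermathecae by 0.80 (limma adjusted p = 0.00405), and the ecdysone importer gene Oatp74D, higher by 0.57 (0.0444). The lower one was mld, by 0.88 on its called probe set.

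Genes of the lysosome and late endosome, where NPC proteins act, gave 28 probe sets tested of 38 names. In mutant spermathecae 1 rose, Gal at 0.62 (limma adjusted p = 0.0488), and in mutant lower tract 1 fell, the lysosomal enzyme receptor gene Lerp at -1.08 (SE 0.167, limma adjusted p = 0.00462), where 7.93% and 5.80% of all probe sets were called. The call of Gal was lost in 13 of 19 alternatives (0.0511 to 0.249) and that of Lerp without mutant lower tract replicate 1 (0.0706). Between the wild-type organs 10 were higher and 6 lower in spermathecae, where 22.2% of all probe sets were higher and 21.5% lower. Lerp was higher by 2.30 (limma adjusted p = 3.09e-06), Gal lower with -3.22 (2.81e-07) and the lysosomal membrane gene Cln3 lower with -5.14 (2.56e-07). Cln3 read 6.60 and 9.73 in wild-type spermathecae, below the array medians, so its size depends on the pseudocount.

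The Imd pathway, which senses bacterial peptidoglycan, was read because some NPC2 proteins bind bacterial components. It gave 16 probe sets tested of 28 names. In mutant spermathecae 0 were called in limma (2 at an unadjusted p below 0.05), and in mutant lower tract 1 rose and 1 fell, where 7.93% and 5.80% of all probe sets were called. The one that rose was AttD, an attacin gene, from 93.5 and 82.9 to 583 and 543 (log2 2.62, SE 0.397, limma adjusted p = 0.00403). The one that fell was PGRP-SC2, a peptidoglycan amidase gene, from 224 and 342 to 109.1 and 76.2 (-1.56, SE 0.254, limma adjusted p = 0.0061). PGRP-SC2 was also called for the interaction of genotype and organ, at 2.03 (limma adjusted p = 0.0153). The call of AttD was lost without mutant lower tract replicate 1 (0.061) and that of PGRP-SC2 without mutant lower tract replicate 2 (0.0707). The interaction of PGRP-SC2 was lost when the second mutant array of lower tract (0.0787) or of spermathecae (0.0705) was left out, and with no variance trend (0.0686). Between the wild-type organs 4 were higher and 5 lower in spermathecae, where 43.7% of all probe sets were called.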

How the data were processed

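The authors made the deposited intensity values with MAS5 (version not given), per the submitters' processing notes. They are on a linear scale, and with 2% of probe sets trimmed from each end every array averaged 150.0. With arrays there is no depth, and their number sets the precision. No detection calls were used here.

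From 18952 probe sets, 183 controls were left out. Of the other 18769, the platform annotation gave 13647 a single symbol, 402 several and 4720 none. The analysis used log2(value + 4). A probe set was kept when both arrays of some group reached their array's median, which left 10113. The fits used limma 3.58.1 under R 4.3.3 (lmFit, eBayes with trend, 4 groups, 4 residual and 5.75 prior degrees of freedom), two-sided, with Benjamini-Hochberg adjustment over the 10113 probe sets of each comparison and calls below 0.05. Shares of all probe sets were taken at an adjusted p below 0.05 only, so counts at an unadjusted p have no such share beside them. The script was tested on simulated data.

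The members, gene lists and marker lists were chosen with earlier results of these data known. All members are named, with up to 3 called probe sets of each list in each comparison by adjusted p, fewer where a comparison is only summarised, and the 3 genes most like each member called between genotypes. Hr96, Lip4 and bmm in the comparisons of genotypes, Lsd-1 in spermathecae, the called markers and the neighbours were named after their values were seen. Marker sums use the brightest probe set of each gene. Positions come from release 6 of the RefSeq annotation and served only for gene order. The alternatives were quantile normalization, median centring, pseudocounts of 1 and 20, a filter at the 75th percentile or none, a variance without trend or with robust estimation, fits of 4 arrays, a replicate block and leaving out each array. Original and duplicate arrays of different groups did not deviate together (correlation of deviations from -0.032 to 0.026), and the main fit paired no samples. This correlation cannot show whether arrays shared animals or a batch.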

Additional observations from a re-analysis of the deposited data

Results flagged for a closer look

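The mutant effect differed between the organs by a limma interaction test for 3 members, given as mutant minus wild type in spermathecae less the same in lower tract. For Npc2h this difference was 2.56 (SE 0.301, adjusted p = 0.00189), with a rise in both mutant spermatheca arrays and a fall in both mutant lower tract arrays. For Npc2g it was 1.98 (SE 0.380, adjusted p = 0.0225), and for Npc2f 1.27 (SE 0.288, adjusted p = 0.0474). With groups of 2 arrays, single outlying arrays were not looked for.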

How the results depend on the processing

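Over 19 alternatives (18 for the interaction, which fits of 4 arrays cannot give), 1 of them (leaving out wild-type spermathecae replicate 1 and wild-type lower tract replicate 1 together) chosen after seeing the data, 10 of the 18 called differences of family members kept their direction and their call in every alternative run. The large differences of Npc2b and Npc2f between organs, those of Npc2h in both genotypes and its interaction, and the rise of Npc2a in mutant spermathecae were among them. The interaction of Npc2g was lost without the variance trend (adjusted p = 0.0825) and without 6 single arrays (0.0511 to 0.129), and that of Npc2f in 12 alternatives (0.0615 to 0.218). Without the variance trend the family count for the interaction was 1 in place of 3. Leaving out single arrays gave family counts of 1 to 4 in mutant spermathecae, 0 to 2 in mutant lower tract and 1 to 3 for the interaction, and counts over all probe sets of 313 to 1132, 178 to 713 and 116 to 440, against 802, 587 and 308. Signs turned only for differences that were not called. Leaving out single arrays, Npc2g in spermathecae ranged from -0.26 (wild-type replicate 2 left out) to 0.63, and was -0.0075 when mutant replicate 1 was left out. In lower tract Npc2b ranged from -0.20 to 0.078 and Npc2f from -0.41 to 0.036, the upper ends on leaving out wild-type replicate 2. The interaction of Npc1a ranged from -0.095 (mutant spermathecae replicate 2 left out) to 0.20, and was -0.025 on leaving out wild-type lower tract replicate 2. With the replicate block, for which the labels give no basis, the interaction of Npc2f had an adjusted p of 0.0638, and no other family call changed. Median centring moved the median organ difference of all probe sets from 0.07 to 0.24 in wild type. Signals near the array median, as of Npc2c, Npc2d and Npc2e, limit what can be detected. The causes of the lost calls were not tested.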
